A study of Homo sapiens with 8 samples.

Results

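The BCL2 family of apoptosis regulators was represented by 10 genes, BMF, BCL2L11, BBC3, PMAIP1, BIK, BID, BAX, BAK1, MCL1 and BCL2L1, chosen by name from the 56638 gene rows that both count tables share. All 10 had a row in both tables and all 10 passed the filter on low counts in both comparisons. They were named with the changes of both knockdowns already known, so that their levels, changes and calls are a description of these libraries and support nothing beyond it. The cells were SCC25, an established squamous carcinoma line derived from the tongue, in which the transcription factor ETS1 had been knocked down to follow short-term and long-term loss. RNA-seq read counts came from 8 libraries in 4 groups of 2 replicates. The siRNA control group received a non-targeting siRNA and the ETS1 siRNA group a pool of siRNAs against ETS1, both by transient transfection. The shCON group carried a stable non-targeting hairpin and the shETS1 group a single stable hairpin against ETS1. Both were delivered by lentivirus and selected with puromycin, and all cells grew in medium with serum and hydrocortisone.

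Apoptosis through the mitochondrion is decided by binding among 3 branches of this family. The effectors BAX and BAK1 open pores in the outer mitochondrial membrane and release cytochrome c, which activates caspases. The guardians MCL1 and BCL2L1 (BCL-XL) hold effectors and activators in check. The BH3-only proteins BCL2L11 (BIM), BBC3 (PUMA), PMAIP1 (NOXA), BID, BIK and BMF respond to stress signals and either block guardians or activate effectors directly. PMAIP1 binds MCL1 with preference, and BMF is known as a sensor of lost attachment and cytoskeletal stress in epithelial cells. Much of this control acts on protein stability and on splicing, which counts per gene do not show: long and short isoforms of MCL1, BCL2L1 and BCL2L11, some with opposite functions, were summed into 1 count per gene.

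Total counts ranged from 15954616 to 25953213 per library. ETS1 itself fell by 4.13 on the log2 scale after siRNA (SE 0.19, adjusted p = 0.00017, edgeR) and fell by 2.89 after shRNA (SE 0.10, adjusted p = 3.8e-13), with no overlap between the groups. Its mean was 268 CPM (counts scaled to the size of the library) in siRNA control and 15.3 CPM after ETS1 siRNA. In shCON it was 77.2 CPM and in shETS1 10.4 CPM. Levels are not directly comparable between the tables, and whether the starting levels differed was not tested. All 10 markers of squamous cells were detected in every group, with a summed level of 17298 to 30210 CPM. The markers of other cell types, fixed as 11 genes, summed to 21.7 to 30.9 CPM in the siRNA libraries, 226 to 257 CPM in shCON and 1935 to 2036 CPM in shETS1. Of the shETS1 sum, 1934 to 2035 CPM came from DCN and LUM, matrix proteoglycans typical of fibroblasts, while the other 9 markers, among them PTPRC of leukocytes and PECAM1 of endothelium, stayed at or under 1.16 CPM in every library. A group of 5 structural RNAs that lack a poly(A) tail, led by RN7SK and RN7SL1, made up 5.61% and 6.63% of counts in shCON, 12.3% and 9.64% in shETS1 and at most 0.00339% in the siRNA libraries. Genes encoded in the mitochondrion made up 0% of counts in every siRNA library and 0.508% to 0.820% in the shRNA libraries. The tables thus differed in the RNA counted as well as in kind of knockdown. Whether preparation or processing of reads led to this was not tested, and for differences between the knockdowns these cannot be told apart.

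Promoter sequences are shown for the members whose changes the results turn on, to give the letters around their start sites. The RefSeq promoter table (GRCh38.p14, 250 bases before to 50 after a start) held 14 windows for 8 of the 10 members, all but BIK and MCL1. Each window was searched on both strands for 3 motifs: CCGGAAG and AGGAAG, both with the GGAA core that ETS factors bind, and CACGTG, the E-box bound by MYC and related factors. CCGGAAG and AGGAAG never match the same core, and CACGTG reads the same on both strands. Of 35116 promoters of the same length, 10.3% held CCGGAAG, 33.6% AGGAAG and 7.26% CACGTG. The windows printed are BMF window 1 at chr15:40108830-40109129 on the minus strand, PMAIP1 at chr18:59899746-59900045 on the plus strand, BAX at chr19:48954625-48954924 on the plus strand, and BCL2L1 window 1 at chr20:31723914-31724213 on the minus strand. Capitals mark matches to the 3 motifs on either strand.
BMF window 1: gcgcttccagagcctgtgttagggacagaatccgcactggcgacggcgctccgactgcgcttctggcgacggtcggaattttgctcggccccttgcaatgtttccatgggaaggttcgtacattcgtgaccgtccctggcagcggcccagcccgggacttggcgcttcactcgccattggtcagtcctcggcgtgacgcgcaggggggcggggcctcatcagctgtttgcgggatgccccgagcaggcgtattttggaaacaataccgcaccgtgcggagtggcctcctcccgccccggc
PMAIP1: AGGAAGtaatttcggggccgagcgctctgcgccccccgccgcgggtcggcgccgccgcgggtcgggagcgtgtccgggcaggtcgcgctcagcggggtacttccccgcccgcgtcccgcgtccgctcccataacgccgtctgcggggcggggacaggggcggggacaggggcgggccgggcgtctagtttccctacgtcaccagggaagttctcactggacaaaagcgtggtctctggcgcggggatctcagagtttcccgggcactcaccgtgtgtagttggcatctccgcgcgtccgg
BAX: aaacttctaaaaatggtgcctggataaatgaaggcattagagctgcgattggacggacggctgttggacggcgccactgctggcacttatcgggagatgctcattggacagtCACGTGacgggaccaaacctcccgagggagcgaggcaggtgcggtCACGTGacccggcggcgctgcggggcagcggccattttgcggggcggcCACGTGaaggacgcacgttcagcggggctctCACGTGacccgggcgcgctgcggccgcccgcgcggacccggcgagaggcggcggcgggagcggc
BCL2L1 window 1: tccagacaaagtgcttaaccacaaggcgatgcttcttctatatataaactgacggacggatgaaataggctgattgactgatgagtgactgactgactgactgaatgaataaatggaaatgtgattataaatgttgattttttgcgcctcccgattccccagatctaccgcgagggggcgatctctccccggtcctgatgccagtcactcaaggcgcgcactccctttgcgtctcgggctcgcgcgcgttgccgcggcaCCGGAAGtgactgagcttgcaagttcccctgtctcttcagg
The BAX window held 4 matches to CACGTG and none to the other motifs. PMAIP1 held 1 AGGAAG at the far upstream end and BCL2L1 window 1 held 1 CCGGAAG just past the start. BMF window 1 held none of the 3 motifs, and window 2, at a downstream start, held 1 AGGAAG. Of the windows not printed, BBC3 held AGGAAG at 2 places and CACGTG at 1, BAK1 and BCL2L1 window 2 held 1 AGGAAG each, and BCL2L11 held none. The 5 BID windows fall into a cluster of 3 and a pair, with overlap inside each, and 4 of them held AGGAAG or CACGTG. A match describes letters in a window and is not a binding site.

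Levels of different genes were compared as TPM, in which counts are divided by exon length and scaled to a fixed sum. In siRNA control, MCL1 was the most abundant member with a mean of 413 TPM, followed by PMAIP1 at 302, BAK1 at 200, BCL2L1 at 104, BAX at 87.2, BID at 54.4, BIK at 20.3, BCL2L11 at 12.9, BBC3 at 5.80 and BMF at 3.06 TPM, and no neighbours in that order overlapped. In shCON, MCL1 at 323 TPM and PMAIP1 at 198 TPM again led, ahead of BID at 55.0, BCL2L1 at 47.3, BAK1 at 42.1 and BAX at 35.2 TPM. There BIK at 5.94 and BCL2L11 at 5.88 TPM overlapped each other, above BBC3 at 2.45 and BMF at 1.34 TPM. BMF, the gene called higher in both knockdowns, was therefore the scarcest member in both controls. After ETS1 siRNA, BMF at 7.99 TPM stood above BBC3 at 5.06 TPM, and BAX at 95.5 TPM stood above BCL2L1 at 86.0 TPM. In shETS1, BMF at 2.17 and BIK at 1.98 TPM overlapped each other, as did BAK1 at 26.8 and BCL2L1 at 26.3 TPM.

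**Figure D1:**
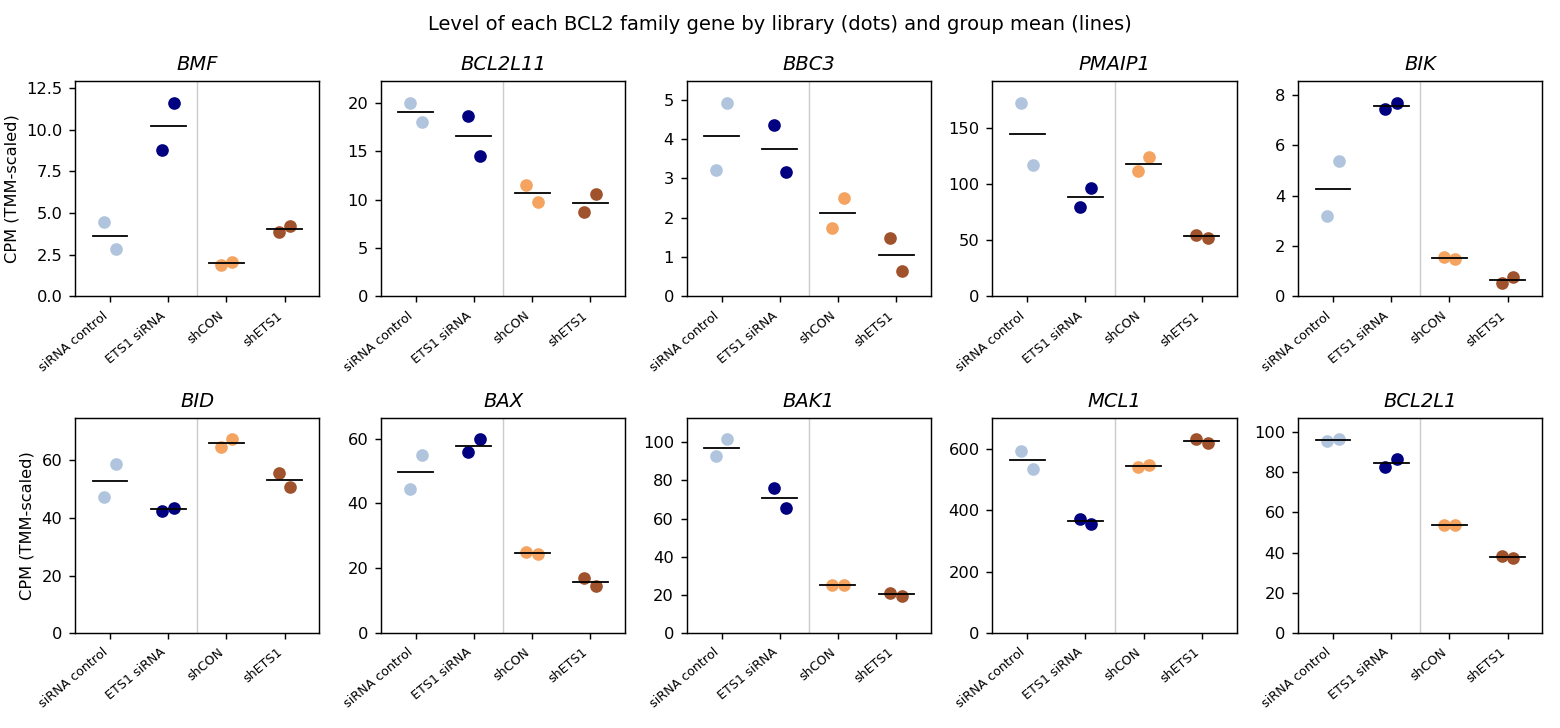
Level of each of the 10 genes in every library, in CPM scaled within each table, with dots for the 2 replicates of a group and a line for their mean. The grey line separates the tables, whose levels are not directly comparable. BMF lies higher in both knockdowns than in its control. BIK and BAX lie higher after siRNA, where neither was called, and lower in shETS1.

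Among the 10 genes, the siRNA knockdown gave 2 calls, a rise of BMF and a fall of MCL1, where a call is an adjusted p under 0.1 over the whole table. Of the 14742 genes tested there, 3.41% were called, 1.13% higher and 2.27% lower. The groups did not overlap for 8 of the 10 members, against 51.9% of all tested genes. The median change of the 10 members was -0.19 on the log2 scale, against 0.0018 for all tested genes. The shRNA knockdown gave 9 calls, 2 higher and 7 lower, in a comparison that called 60.6% of 16481 tested genes. There 29.7% of tested genes were called higher and 30.9% lower. The groups did not overlap for 9 of the 10 members, against 76.6% of tested genes, and the members' median change was -0.41, against 0.00066 for all tested genes. As the members were named with these contrasts known, nothing is read from these shares. In these bulk samples, fewer cells of a type and less RNA per cell cannot be told apart. All 16 genes of the proliferation list, such as MKI67 and TOP2A, also fell after shRNA, with a median of -0.96 on the log2 scale and a summed level of 3212 to 3215 CPM in shCON and 1671 to 1698 CPM in shETS1. Their part in the members' changes was not tested, nor was that of DCN and LUM or of the non-polyadenylated RNAs.

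**Figure D2:**
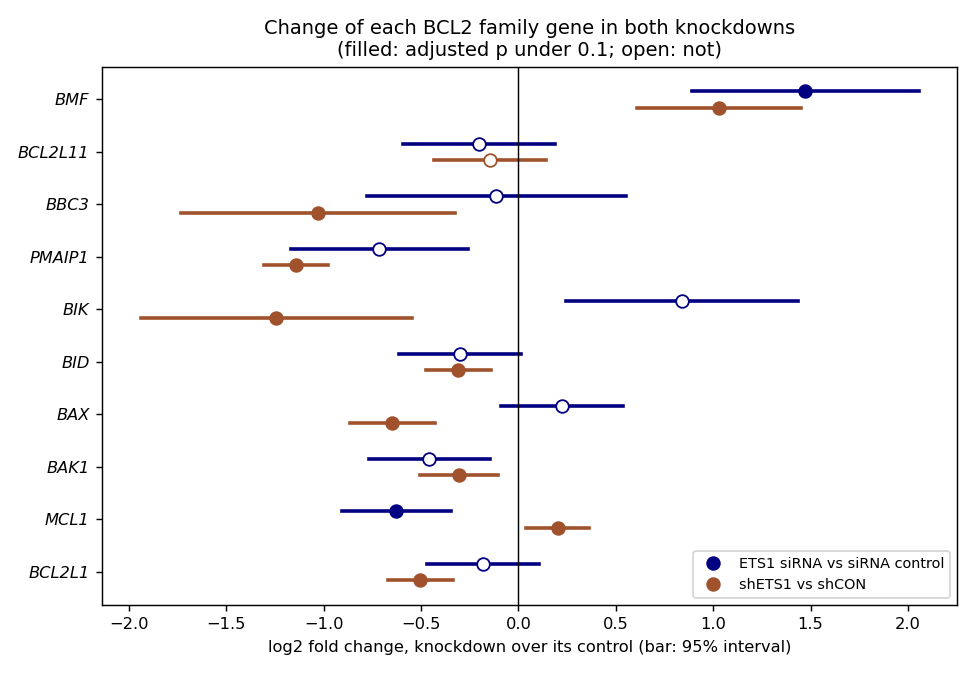
Log2 fold change of each gene in both knockdowns against its own control, with 95% intervals, filled dots for an adjusted p under 0.1 and open dots otherwise. BMF sits above 1 in both knockdowns, and MCL1, BIK and BAX have their dots on opposite sides of zero.

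BMF (GRCh37 chr15:40380091-40401093, minus strand) was the BH3-only gene that rose in both knockdowns. It stood at 4.43 and 2.87 CPM in siRNA control and at 8.79 and 11.6 CPM after ETS1 siRNA, from 46 to 236 counts per library. Both knockdown libraries lay above both controls, with a log2 change of 1.47 (SE 0.25, 95% interval 0.89 to 2.05, adjusted p = 0.038, edgeR). In the stable cells it stood at 1.91 and 2.04 CPM in shCON and at 3.88 and 4.20 CPM in shETS1. This was a log2 change of 1.03 (SE 0.20, 95% interval 0.61 to 1.45, adjusted p = 0.00030, edgeR), again without overlap. Relative to MCL1, the TPM of BMF went from 0.0085 and 0.0061 to 0.027 and 0.037 after siRNA and from 0.0040 and 0.0043 to 0.0070 and 0.0078 in shETS1, so that BMF remained a minor member. Exons of BMF overlap those of the antisense gene BMF-AS1, and since the use of strand in counting is not stated, reads of these genes cannot be told apart.

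PMAIP1 (GRCh37 chr18:57567228-57571537, plus strand), the BH3-only partner of MCL1, was the most abundant BH3-only mRNA in every group. It stood at 112 and 124 CPM in shCON and at 54.6 and 52.2 CPM in shETS1. It fell by 1.14 on the log2 scale (SE 0.08, 95% interval -1.31 to -0.98, adjusted p = 1.9e-09, edgeR), the smallest adjusted p of the 10 members after shRNA. In the siRNA libraries it stood at 172 and 117 CPM in the control and at 79.8 and 96.6 CPM after knockdown. These groups did not overlap, but the controls themselves differed widely, and the log2 fold change of -0.71 (SE 0.20) missed the call with an adjusted p of 0.13. The call was made by DESeq2 (adjusted p = 0.011) and without siRNA control replicate 2 (-0.97, adjusted p = 0.029, edgeR), whereas without siRNA control replicate 1 the change was -0.41 (adjusted p = 0.79).

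BIK (GRCh37 chr22:43506756-43525718, plus strand), a BH3-only protein of the endoplasmic reticulum, fell in the stable knockdown. It stood at 1.55 and 1.50 CPM in shCON, 39 counts in each library, and at 0.523 and 0.753 CPM in shETS1, 12 and 19 counts. The log2 fold change was -1.24 (SE 0.33, 95% interval -1.94 to -0.55, adjusted p = 0.0040, edgeR). In the siRNA libraries BIK stood at 3.17 and 5.36 CPM in the control and at 7.45 and 7.68 CPM after knockdown. Both siRNA knockdown libraries lay above both controls, with a log2 change of 0.84 (SE 0.26, 95% interval 0.24 to 1.43) whose adjusted p was 0.16. Without siRNA control replicate 2 that change was 1.25 and was called (adjusted p = 0.045, edgeR), and without siRNA control replicate 1 it was 0.50 (adjusted p = 0.83).

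BBC3 (GRCh37 chr19:47724079-47736023, minus strand), an activator BH3-only protein induced by cell stress, also fell after shRNA, on few counts. It stood at 1.75 and 2.51 CPM in shCON, 44 and 65 counts, and at 1.48 and 0.634 CPM in shETS1, 34 and 16 counts. The log2 fold change was -1.03 (SE 0.33, adjusted p = 0.015, edgeR). The call was lost with DESeq2 (adjusted p = 0.12), without shCON replicate 2 (-0.74, adjusted p = 0.102) and without shETS1 replicate 2 (-0.53, adjusted p = 0.18), and without shETS1 replicate 1 the change was -1.75, so that the shETS1 replicates set much of its size. After siRNA the groups overlapped, with 3.22 and 4.93 CPM in the control and 4.36 and 3.15 CPM in the knockdown, and the log2 fold change was -0.11 (95% interval -0.78 to 0.55).

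BID (GRCh37 chr22:18216904-18257536, minus strand), which links death receptors to the mitochondrion once caspase-8 has cut it, fell modestly after shRNA. It stood at 64.5 and 67.3 CPM in shCON and at 55.6 and 50.8 CPM in shETS1, a log2 change of -0.31 (SE 0.08, adjusted p = 0.0030, edgeR). After siRNA the log2 fold change was -0.30 (SE 0.14), from 47.2 and 58.6 to 42.5 and 43.3 CPM, with an adjusted p of 0.29. The estimates were close, while the SE of the siRNA comparison was the larger.

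BCL2L11 (GRCh37 chr2:111876955-111926021, plus strand), the activator BIM, was the only member called in neither knockdown. It stood at 20.0 and 18.1 CPM in siRNA control and at 18.7 and 14.5 CPM after knockdown, and at 11.6 and 9.79 CPM in shCON against 8.71 and 10.5 CPM in shETS1. The groups overlapped in both tables. The log2 fold change was -0.20 after siRNA (95% interval -0.59 to 0.19) and -0.15 after shRNA (95% interval -0.43 to 0.14), intervals that hold no doubling or halving. Without shETS1 replicate 2 the shRNA change was -0.30 and was called (adjusted p = 0.096, edgeR), while without shETS1 replicate 1 it was -0.02 (adjusted p = 0.91) and without shCON replicate 1 it was -0.03 (adjusted p = 0.92). Its exons overlap those of MIR4435-2HG on the other strand.

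The effectors BAX and BAK1 both fell after shRNA and neither was called after siRNA. BAX (GRCh37 chr19:49458072-49465055, plus strand) stood at 25.0 and 24.3 CPM in shCON and at 16.9 and 14.6 CPM in shETS1, a log2 change of -0.65 (SE 0.10, adjusted p = 4.5e-05, edgeR). After siRNA it stood at 44.4 and 54.9 CPM in the control and at 55.9 and 59.8 CPM in the knockdown. These groups lay side by side without overlap, with a log2 change of 0.22 (SE 0.14, 95% interval -0.09 to 0.53). BAK1 (GRCh37 chr6:33540324-33548070, minus strand) stood at 25.1 and 25.4 CPM in shCON and at 21.2 and 19.7 CPM in shETS1, a log2 change of -0.31 (SE 0.10, adjusted p = 0.011, edgeR). After siRNA it stood at 92.9 and 102 CPM in the control and at 76.0 and 65.8 CPM in the knockdown, with a log2 change of -0.46 (SE 0.14) and an adjusted p of 0.15. DESeq2 called that difference (adjusted p = 0.078), as did edgeR without ETS1 siRNA replicate 1 (-0.56, adjusted p = 0.058). BAK1 has the pseudogenes BAK1P1 and BAK1P2 and exons that overlap GGNBP1 on the other strand, so that its level is uncertain to the extent that reads were split or shared.

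The guardian MCL1 (GRCh37 chr1:150533371-150552214, minus strand), a short-lived protein on which many carcinoma cells depend, fell after siRNA. It stood at 594 and 534 CPM in siRNA control and at 373 and 357 CPM after knockdown, without overlap. The log2 fold change was -0.63 (SE 0.12, 95% interval -0.91 to -0.35, adjusted p = 0.055, edgeR), and the call was lost without siRNA control replicate 1 (-0.55, adjusted p = 0.57). In the stable cells MCL1 stood at 540 and 547 CPM in shCON and at 632 and 619 CPM in shETS1. This rise of 0.20 on the log2 scale (SE 0.08, adjusted p = 0.034, edgeR) depended on the scaling. With library size only, which moved the median of all tested genes to -0.12, it was 0.08 with an adjusted p of 0.35, and the call was also lost without shCON replicate 1 (adjusted p = 0.19) or replicate 2 (adjusted p = 0.13). As TPM the order turned, with 335 and 311 TPM in shCON and 275 and 310 TPM in shETS1. Between libraries, going from CPM to TPM shifts every gene by the same factor, so that this turn is not particular to MCL1. XIAP, an inhibitor of apoptosis, had means of 89.0 CPM in shCON and 113 CPM in shETS1, but 34.5 TPM in both. MCL1 shares exon sequence with ADAMTSL4-AS1 on its own strand and with ADAMTSL4 on the other.

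The guardian BCL2L1 (GRCh37 chr20:30252255-30311792, minus strand) fell after shRNA, from 53.6 and 53.9 CPM in shCON to 38.5 and 37.3 CPM in shETS1. The log2 fold change was -0.50 (SE 0.08, 95% interval -0.67 to -0.34, adjusted p = 3.7e-05, edgeR). After siRNA it stood at 95.4 and 96.3 CPM in the control and at 82.6 and 86.3 CPM in the knockdown, a log2 change of -0.18 (SE 0.13, 95% interval -0.47 to 0.11) that was not called. Its exons overlap those of ABALON on the other strand.

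The difference between the knockdowns was tested in a fit of all 8 libraries as the shRNA change minus the siRNA change, a contrast that called 34.8% of 17190 tested genes. It was called for 4 of the 10 members. BIK differed most, by -2.10 on the log2 scale (SE 0.42, adjusted p = 0.0039, edgeR), followed by BAX with -0.89 (SE 0.17, adjusted p = 0.0036) and MCL1 with 0.81 (SE 0.13, adjusted p = 0.0012). For these 3 genes the estimates had opposite signs in the knockdowns, although BIK and BAX were not called after siRNA. BCL2L1 differed by -0.34 (SE 0.13, adjusted p = 0.073), a call that was lost with DESeq2 and without any 1 of 6 of the 8 libraries. BMF did not differ beyond error, with a difference of -0.46 whose 95% interval ran from -1.18 to 0.26. For PMAIP1 the difference was -0.45 (95% interval -0.96 to 0.07), and it was called without siRNA control replicate 1 (-0.76, adjusted p = 0.017) and without ETS1 siRNA replicate 1 (-0.58, adjusted p = 0.079), but was -0.21 without siRNA control replicate 2. BBC3 gave -0.93 (95% interval -2.07 to 0.20), and without shETS1 replicate 1 it was -1.62 and called (adjusted p = 0.067), against -0.44 without shETS1 replicate 2. BCL2L11, BID and BAK1 gave differences between -0.03 and 0.13, none of them called.

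The make-up of the family within a library does not depend on how libraries are scaled to each other. MCL1 made up 45.6% and 44.5% of the summed TPM of the 10 genes in shCON and 60.7% and 61.5% in shETS1. PMAIP1 went from 26.8% and 28.6% to 14.9% and 14.8%, and the ratio of PMAIP1 to MCL1 from 0.589 and 0.642 to 0.246 and 0.240. The BH3-only genes together took 36.7% and 38.4% in shCON and 24.2% and 24.0% in shETS1, and the guardians 52.3% and 51.0% against 66.2% and 67.0%. In the siRNA libraries the shares of guardians lay closer together, at 43.0% and 43.0% in the control and 40.8% and 39.3% after knockdown. The BH3-only shares overlapped, at 35.5% and 30.5% in the control and 30.6% and 34.0% after knockdown. The ratio of BAX to BCL2L1 went from 0.756 and 0.925 to 1.10 and 1.12 after siRNA and from 0.756 and 0.731 to 0.710 and 0.636 in shETS1.

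**Figure D3:**
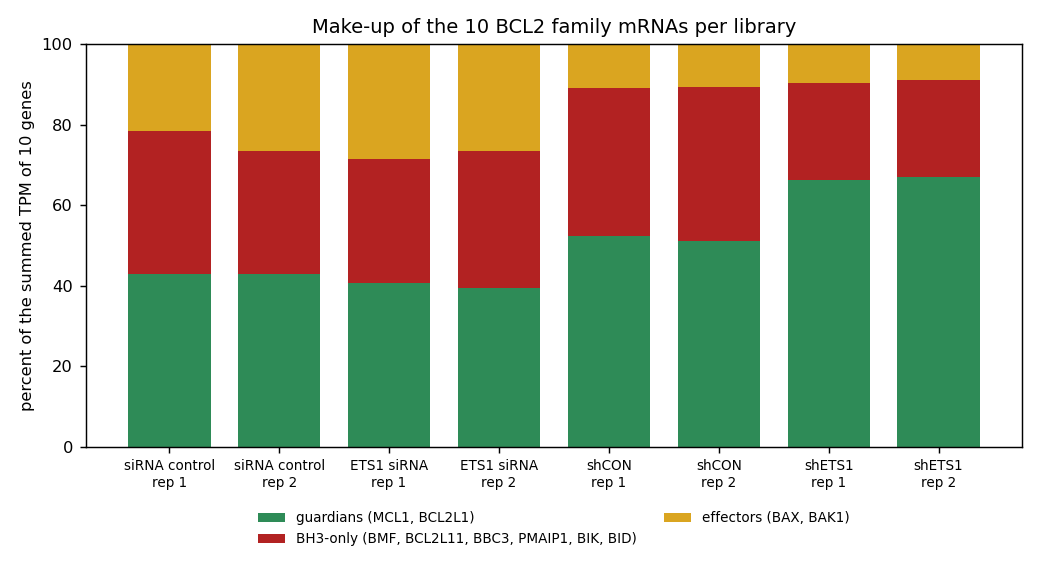
Share of the summed TPM of the 10 genes taken by guardians, BH3-only genes and effectors, as 1 stacked bar for each of the 8 libraries. Guardians take 51.0% to 52.3% in shCON and 66.2% to 67.0% in shETS1, while the siRNA bars differ less between control and knockdown.

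The surrounding pathway was covered by 7 lists of 86 genes, of which 85 had a row. After siRNA, 8 of 80 tested genes were called, 3 higher and 5 lower, beside 3.41% of all tested genes, and their median change was 0.013. Without siRNA control replicate 1 it was 1 gene, without ETS1 siRNA replicate 1 it was 13 and without ETS1 siRNA replicate 2 it was 5. After shRNA, 60 of 81 tested genes were called, 33 higher and 27 lower, beside 60.6% of all tested genes, with a median change of 0.085. With library size only the latter split was 28 higher and 33 lower. The lists were written with earlier results of these data known.

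**Figure D4:**
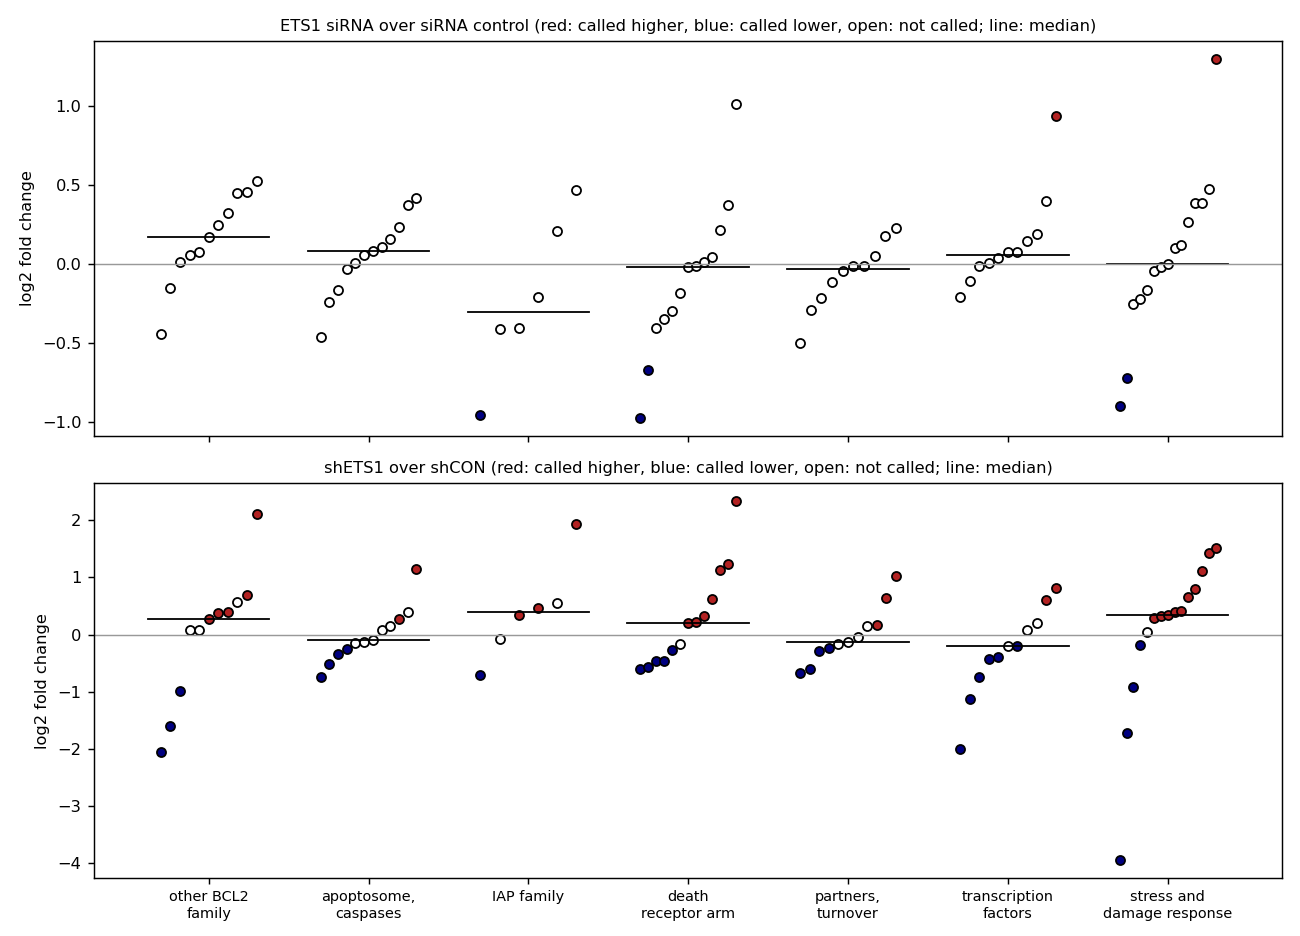
Log2 fold change of the tested genes reported here from the 7 pathway lists after siRNA (top) and shRNA (bottom), sorted within each list, with a line at the median of all tested genes of the list. Red dots were called higher, blue dots called lower and open dots not called; calls of both directions stand in every list after shRNA.

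Among the other BCL2 family genes, 0 of 11 tested were called after siRNA with edgeR, 2 had an unadjusted p under 0.05, and their median was 0.17. After shRNA 5 rose and 3 fell, beside 60.6% of all tested genes called. BCL2 itself, the founding guardian, was scarce and fell by 2.05 on the log2 scale (adjusted p = 0.00015), from 1.43 and 1.70 CPM in shCON to 0.436 and 0.317 CPM in shETS1, 10 and 8 counts. The guardian BCL2L2 (BCL-W) stood at 36.0 and 38.8 TPM in shCON and was called in neither knockdown, with log2 fold changes of -0.15 and 0.08. BCL2A1 had at most 4 counts in any library and was not tested. BCL2L12 fell by 1.60 after shRNA, BOK, an effector-like member, rose by 0.69, and BCL2L10 rose by 2.11 on 18 to 101 counts per shRNA library.

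Downstream of the mitochondrion, 3 of 13 apoptosome and caspase genes rose and 4 fell after shRNA, beside 60.6% of all tested genes called. CASP9, the initiator caspase, rose by 1.14, while its scaffold APAF1 fell by 0.51 and CASP2 fell by 0.74 on the log2 scale.

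Among the inhibitors of apoptosis, which block caspases or their activation, BIRC3 moved in opposite directions. It stood at 73.1 and 81.2 CPM in siRNA control and at 47.8 and 32.0 CPM after ETS1 siRNA, which is a log2 change of -0.95 (SE 0.19, adjusted p = 0.055, edgeR). In shCON it stood at 102 and 113 CPM and in shETS1 at 418 and 400 CPM, a log2 change of 1.93 (SE 0.08, adjusted p = 2.7e-12, edgeR). BIRC2 and XIAP rose after shRNA by 0.46 and 0.34, although XIAP had a mean of 34.5 TPM in both shCON and shETS1. BIRC5 (survivin), whose level follows the cell cycle, fell by 0.70, beside the fall of all 16 proliferation genes. Of 6 tested inhibitors, 1 was called after siRNA and 4 after shRNA, beside 3.41% and 60.6% of all tested genes.

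The death receptor list gave 2 falls after siRNA and 7 rises and 5 falls after shRNA among 13 tested genes. Over the whole tables, 3.41% of tested genes were called after siRNA and 60.6% after shRNA. FAS and TNFRSF10A, receptors for FAS ligand and TRAIL, were called lower in both knockdowns. FAS stood at 28.5 and 26.1 CPM in siRNA control, 15.0 and 12.9 CPM after ETS1 siRNA, 22.2 and 21.7 CPM in shCON and 16.5 and 12.6 CPM in shETS1, with log2 fold changes of -0.97 (SE 0.15) and -0.60 (SE 0.12). TNFRSF10A changed by -0.67 (SE 0.14) and -0.46 (SE 0.10). After shRNA the TRAIL ligand TNFSF10 rose by 2.33, from 101 and 109 to 552 and 502 CPM, and the decoy receptor TNFRSF10D by 1.14, whereas TNFRSF10B fell by 0.56 and TNFRSF1A fell by 0.46.

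Of the binding partners and turnover factors, 0 of 10 tested were called after siRNA with edgeR and 1 had an unadjusted p under 0.05. After shRNA 3 of 11 rose and 4 fell, beside 60.6% of all tested genes called. DYNLL2, the dynein light chain that tethers BMF, fell by 0.67 on the log2 scale. FBXW7 and HUWE1 are ubiquitin ligase components that direct MCL1 to degradation, and FBXW7 rose by 0.64 while HUWE1 fell by 0.60. BAG1, a cochaperone that binds BCL2, rose by 1.02.

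Among 12 transcription factors known to act on BH3-only genes, TP73 was the 1 called after siRNA, with a log2 change of 0.93 (SE 0.23, adjusted p = 0.099, edgeR) on 101 to 234 counts. After shRNA it changed by -0.20 and was not called. There 2 factors rose and 6 fell, beside 60.6% of all tested genes called. Log2 fold changes were -2.01 for EGR1, -1.12 for E2F1, -0.75 for MYC and 0.60 for FOXO3.

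The last list held genes of the stress and DNA damage response. After siRNA RPS27L rose by 1.30, MDM2 fell by 0.90 and ZMAT3 fell by 0.72 on the log2 scale, among 15 tested genes. After shRNA 10 rose and 4 fell, beside 60.6% of all tested genes called. Log2 fold changes were 1.42 for SESN1, 1.51 for TP53I3, 1.12 for ZMAT3 and -1.73 for PLK3. GDF15, named here after its values were seen as the lowest point of its list, fell by 3.94. CDKN1A (p21), an inhibitor of cyclin-dependent kinases, stood at 161 and 167 CPM in siRNA control and 214 and 214 CPM after ETS1 siRNA, which is a log2 change of 0.38 (SE 0.12) with an adjusted p of 0.17. It rose by 0.33 after shRNA (SE 0.09, adjusted p = 0.0041, edgeR). As TPM its means were 67.6 in shCON and 66.3 in shETS1, so that this rise depended on the scaling.

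The pattern most like that of BMF was sought among 10050 genes tested in both knockdowns and averaging 5 CPM or more in each table, by the distance between pairs of log2 fold changes over the 8 libraries. BMF itself, with means of 1.98 CPM in shCON and 4.04 CPM in shETS1, lay under that level, so that genes as scarce were not searched. The 3 nearest were GPR1 at a distance of 0.45, with log2 fold changes of 1.03 and 0.97, ZNF268 at 0.52, with 0.97 and 0.88, and ZCCHC24 at 0.54, with 1.26 and 0.54. GPR1 stood at 3.98 and 5.55 CPM in siRNA control and 9.89 and 9.41 CPM after ETS1 siRNA, and at 10.6 and 11.3 CPM in shCON and 21.6 and 21.3 CPM in shETS1. Each of the 3 was called higher in both knockdowns, and none overlapped its control in either table. As the 3 were picked by these same changes, this largely follows from the choice and nothing is read from it.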

How the data were processed

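RNA sequencing of 8 SCC25 libraries was analysed. Per the labels and the study's methods, the authors prepared TruSeq RNA libraries, aligned the single-end reads with TopHat2 (2.1.1) and Bowtie2 (2.2.6) to GRCh37 and counted reads per Ensembl gene with featureCounts (1.5.0), versions per the submitters' processing notes. Each knockdown has its own deposited table of unnormalized counts, with gene symbols as rows. Strand use and the treatment of multimapping reads are not given in the sources used here. Columns with values of other samples numbered 0.

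Each knockdown was compared with its control on its own 4 libraries with edgeR 4.0.16 (R 4.3.3, two-sided quasi-likelihood test, TMM scaling, genes kept by filterByExpr, no covariate besides group), and calls were made at a p under 0.1 after Benjamini-Hochberg adjustment over all genes tested. The study used DESeq2, run here as an alternative (1.42.0). The difference between the knockdowns was tested in a fit of all 8 libraries. Standard errors were computed as the absolute log2 fold change over the root of F. CPM was scaled by TMM within each table, and TPM used GENCODE v44 exon lengths on GRCh37 for the 33514 symbols that matched. Replicates are stated as biological for the siRNA libraries only, and p-values otherwise measure the spread between these samples. Within each group, replicates differed beyond sampling noise (chi-square per degree of freedom 7.44 to 27.2). Common dispersions of 0.0192 (siRNA) and 0.00402 (shRNA) made the former comparison less precise. In simulated counts, 200 genes were given a log2 change of 1. The test recovered 66.3% of the changed genes tested among 14477 genes in the siRNA comparison (18.8% of calls were unchanged genes). It recovered 85.3% among 16120 in the shRNA comparison (15.5%) and 56.1% among 16353 in the interaction (16.5%). Each share of unchanged genes lay above the 0.1 of the threshold. The planted genes were a far smaller share than the 60.6% called in the shRNA comparison and the 34.8% in the interaction. The simulated rates need not hold there.

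The 10 members, the lists and the tests were chosen with earlier results of these data known. Named were the members, ETS1, up to 4 called genes by adjusted p from each of 7 pathway lists in each knockdown, BCL2, BCL2L2, BCL2A1 and CDKN1A, and the 3 genes nearest to BMF. Some results that this rule covers are not reported here, although counts over lists include them. As alternatives, edgeR was run with library size only or DESeq2 size factors, without a filter or with 10 counts in every library, with a replicate block, with all 8 libraries in 1 fit, at an adjusted p under 0.05 and leaving out each library, and DESeq2 was run in its place.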

Additional observations from a re-analysis of the deposited data

Results flagged for a closer look

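Among the genes the report names, these were singled out because the test of the difference between the knockdowns, the shRNA change minus the siRNA change on the log2 scale, was called. That test called 34.8% of 17190 tested genes, so that a call is common in these data. The target ETS1 itself differed by 1.23 (SE 0.21, adjusted p = 0.0017, edgeR), its fall being the smaller after shRNA. Among the members these were BIK at -2.10, BAX at -0.89, MCL1 at 0.81 and BCL2L1 at -0.34. The table of the siRNA libraries and that of the shRNA libraries also differed in the RNA counted, so that kind of knockdown, preparation and processing of reads cannot be told apart.

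Among the inhibitors of apoptosis the difference was 2.86 for BIRC3, 0.73 for XIAP, 0.64 for BIRC2 and -0.93 for BIRC5. For the other BCL2 family genes it was -2.06 for BCL2L12, 1.84 for BCL2L10, -1.62 for BCL2 and 0.50 for BOK. In the apoptosome and caspase list CASP9 gave 1.01, CASP2 -1.14 and APAF1 -0.69. In the death receptor list TNFSF10 gave 2.50, TNFRSF10D 1.41, TNFRSF1A -0.70 and TNFRSF10B -0.63. FBXW7 gave 1.12, BAG1 0.95 and DYNLL2 -0.68. Of the transcription factors EGR1 gave -2.04, E2F1 -1.55, TP73 -1.16 and MYC -0.56. Of the stress and DNA damage response genes ZMAT3 gave 1.83, TP53I3 1.71, SESN1 1.43, MDM2 0.93, RPS27L -0.90 and PLK3 -1.76, and GDF15, named after its values were seen, gave -3.69. All 16 genes of the proliferation list had a called difference as well, with a median of -1.01, and their part in these differences was not tested.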

How the results depend on the processing

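Calls after siRNA depended most on the settings. In place of 2 members, 1 was called at an adjusted p under 0.05, 5 without a filter on low counts, 4 with DESeq2, 5 in the fit of all 8 libraries, and between 1 and 4 when 1 library was left out (1 without siRNA control replicate 1, 4 without siRNA control replicate 2). In place of 8 pathway genes, 4 were called at an adjusted p under 0.05, 16 in the fit of all 8 libraries, and between 1 and 13 when 1 library was left out (1 without siRNA control replicate 1, 13 without ETS1 siRNA replicate 1, 5 without ETS1 siRNA replicate 2). Over all genes, 502 were called after siRNA, 1466 without a filter, 777 with DESeq2, 2166 with all 8 libraries and 72 to 1478 with 1 library left out. The cause was not tested. The main fits called 60.6% of 16481 tested genes after shRNA and 34.8% of 17190 in the interaction. DESeq2 called 7608 and 4820 genes there. Beside these shares, the following counts are not read as particular to the members. After shRNA between 7 and 9 members and between 51 and 67 pathway genes were called under every alternative run, and between 3 and 6 members in the interaction.

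With the replicate number as a block, edgeR called 0 members after siRNA, where 5 had an unadjusted p under 0.05, 8 after shRNA and 3 in the interaction, and 1 and 55 pathway genes. Over all genes this block called 97 of 14742 after siRNA, 9173 of 16481 after shRNA and 4264 of 17190 in the interaction. The fits without it called 502, 9988 and 5974. The labels do not say that a number marks a shared culture or day, and deviations of same-numbered libraries correlated at -0.57 in the siRNA and -0.13 in the shRNA table, over 2 pairs each. A crossed pairing, added after seeing the data, called 5 members and 24 pathway genes after siRNA, 9 and 67 after shRNA, and 6 members in the interaction. Over all genes it called 3238 after siRNA, 10923 after shRNA and 7467 in the interaction, so that the member counts moved with those of the whole table.

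Over 360 recomputed changes of single members, 312 kept their direction and their side of the threshold, 18 gained and 20 lost the call, and 10 turned their sign, each of them without a call. BBC3 after siRNA ranged from -0.40 to 0.22 with 1 library left out. The interaction of BCL2L11 was -0.049 with library size only and ranged from -0.14 to 0.22 with 1 library left out, and that of BID was 0.0049 with at least 10 counts in every library and ranged from -0.21 to 0.11. With 2 libraries a group and 12 to 65 counts, BIK and BBC3 in the shRNA libraries are the members that depth limits most.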
